A study of Mus musculus with 10 samples.

Results

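The genes of iron uptake, storage, export and hepcidin control were followed through normal mouse liver and 2 kinds of liver tumour. The members were chosen by name, and their rows were read from a table of log2 FPKM (fragments per kilobase of gene per mega reads). They are Hamp, Tfr2, Hfe, Trf, Tfrc, Slc11a2, Fth1, Ftl1, Slc40a1 and Ireb2, which makes 10 of the 16697 gene entries of the table. All 10 passed the filter on low values that left 14017 genes for testing.

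The libraries came from wild-type normal livers (NL, n = 4), tumours induced by c-MYC with the empty pT3 vector (c-MYC, n = 3) and tumours that received FOXO1AAA besides c-MYC (c-MYC/FOXO1AAA, n = 3). FOXO1AAA is a form of the transcription factor FOXO1 that AKT can no longer switch off by phosphorylation. Plasmids were delivered to hepatocytes by hydrodynamic tail vein injection together with the sleeping beauty transposase, and the pT3 vectors carry the EF1α promoter, which is active in most cell types and not only in hepatocytes. Tumours were taken when the mice were moribund, and no injected liver without a tumour was among the groups, so c-MYC, injection and tumour stage cannot be told apart in any comparison with NL. The sources used here differ on whether the c-MYC control mice also received MCL1, which the sample labels do not name. All animals were labelled WT. The strain is C57BL/6 in the sample labels and FVB in the description of the RNA extraction, and the ages are not given in the sources used here. Nothing in the labels says that the samples of a group are separate animals, so the p-values measure the spread between these samples.

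Hepcidin, the product of Hamp, is a peptide hormone that hepatocytes secrete. It binds ferroportin (Slc40a1), the iron exporter of cells, and causes its breakdown, so that less iron enters the blood. The liver makes hepcidin when transferrin is loaded with iron, which is sensed through Hfe, transferrin receptor 2 and bone morphogenetic protein (BMP) signalling, and during inflammation through STAT3. Inside cells, iron regulatory proteins bind hairpins in messenger RNA when iron is scarce. Bound near the start of a message they block its translation, as for the ferritins and ferroportin, and bound in the 3′ UTR they protect the message from decay, as for transferrin receptor 1 (Tfrc).

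The hairpins of the members are shown because they set which messages the iron regulatory proteins act on. A stem-loop was searched for in the UTRs of GENCODE M21 coding transcripts (GRCm38), as a C, 5 bases, CAGTGN and 5 bases that pair with the first 5, G-T pairs included. Capitals mark the bulged C and the loop. It was found in the 5′ UTR of 3 members and the 3′ UTR of 1 member, while 0.148% of genes with a 5′ UTR and 0.595% of genes with a 3′ UTR hold one.
Fth1, 5′ UTR, chr19:9982732-9982760, plus strand: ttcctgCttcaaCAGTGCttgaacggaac
Ftl1, 5′ UTR, chr7:45459779-45459807, minus strand: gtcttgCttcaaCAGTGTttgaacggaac
Slc40a1, 5′ UTR, chr1:45925465-45925493, minus strand: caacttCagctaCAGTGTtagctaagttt
Tfrc, 3′ UTR, chr16:32631219-32631247, plus strand: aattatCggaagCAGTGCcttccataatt
Tfrc, 3′ UTR, chr16:32631598-32631626, plus strand: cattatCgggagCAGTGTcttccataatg
Tfrc, 3′ UTR, chr16:32631663-32631691, plus strand: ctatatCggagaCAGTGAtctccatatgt
Tfrc, 3′ UTR, chr16:32631710-32631738, plus strand: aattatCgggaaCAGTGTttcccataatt
The Fth1 and Ftl1 hairpins carry the same 5-base upper stem, and Tfrc holds 4 hairpins within its 3′ UTR. No match was found in the UTRs of Slc11a2 or the other members, which says only that this pattern is not in the annotated windows.

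The promoter of Hamp is shown because BMP and STAT3 signals reach the gene there. Of the members, 7 matched a RefSeq promoter window (GRCm38.p6, 250 bases before to 50 after the start). The 150 bases before the start of Hamp lie at chr7:30944030-30944179 on the minus strand. Capitals mark the BMP response element letters GGCGCC and the STAT letters TTCNNNGAA, searched on both strands.
Hamp, promoter: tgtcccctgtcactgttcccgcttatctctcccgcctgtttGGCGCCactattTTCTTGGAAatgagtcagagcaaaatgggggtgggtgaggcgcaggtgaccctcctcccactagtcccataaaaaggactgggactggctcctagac
The first base of GGCGCC lay 109 bases and that of the STAT letters 97 bases before the start, and the letters do not overlap. GGCGCC is held by 11.9% of all 32851 promoter windows and TTCNNNGAA by 8.3%. Besides Hamp, Tfrc held GGCGCC, and no member window held the E-box CACGTG (7.15% of all windows) or the forkhead letters GTAAACA (3.65%). These matches are letters in a sequence and do not show binding.

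Recovered reads per library ran from 13.12 to 20.55 M (mega). Foxo1 lay between 70.1 and 95.6 FPKM in the c-MYC/FOXO1AAA libraries against 5.17 to 6.46 in c-MYC and 6.69 to 7.87 in NL, and the c-MYC/FOXO1AAA libraries did not overlap with the others. The summed level of 12 hepatocyte markers was 4.51% to 6.59% of the NL mean in c-MYC and 1.03% to 1.79% in c-MYC/FOXO1AAA. Alb and Apoa1 made up most of that sum in NL. The means of single markers ran from 0.117% (Tat) to 51.5% (Hnf4a) of NL in c-MYC. In c-MYC/FOXO1AAA they ran from 0.552% (Tat) to 3.92% (Hnf4a). In whole tissue, fewer cells of a type and less RNA per cell cannot be told apart, and this holds for every gene below that hepatocytes express.

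In c-MYC tumours compared with NL, 6 of the 10 genes were lower and 1 was higher at an adjusted p under 0.05 for a change above 1.5-fold (limma treat, Benjamini-Hochberg). Over all genes tested, 23.6% were lower and 24.5% higher. With libraries set to the same FPKM total, 5 members were lower and 2 higher, and 1895 genes were lower and 7061 higher in place of 3305 and 3435. The groups did not overlap for 9 of the 10 genes, against 73.9% of all genes. In c-MYC/FOXO1AAA compared with c-MYC, 3 members were lower and 0 higher, against 12.7% and 15.9% of all genes, and 7 did not overlap, against 63.4%. At an unadjusted p under 0.05, Hamp was higher and Slc11a2 lower there as well. In c-MYC/FOXO1AAA compared with NL, 8 members were lower and 1 higher, against 26.6% and 31.2%, and 9 did not overlap, against 80.1%. Equal FPKM totals gave 5 lower and 1 higher there, with 2099 genes lower and 8129 higher in place of 3728 and 4371. The comparisons share libraries in pairs, since each group enters a pair of them.

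**Figure D1:**
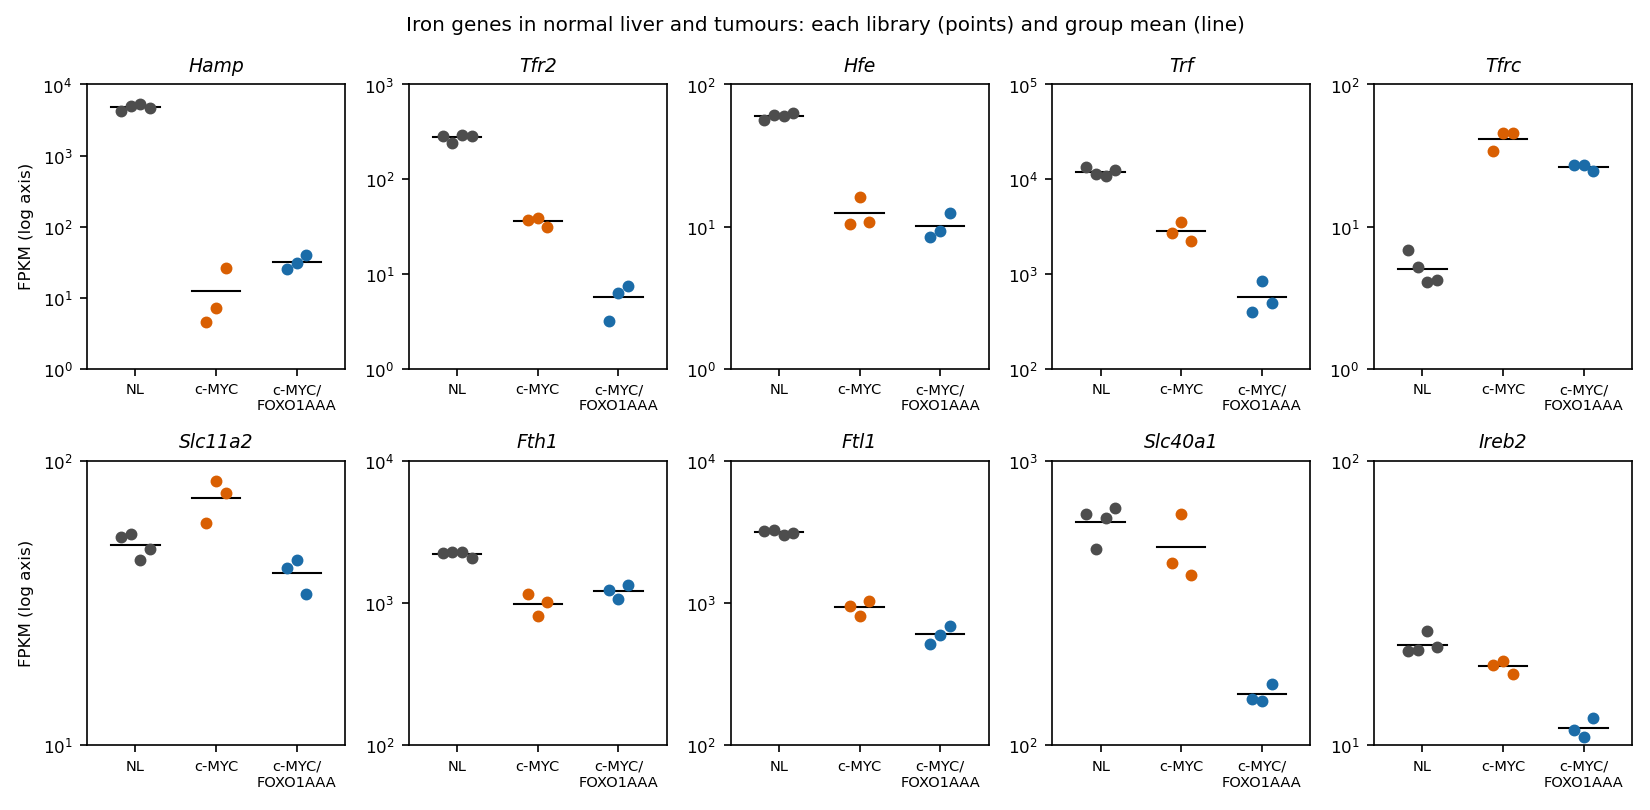
FPKM of the 10 iron genes on log axes in NL (n = 4), c-MYC (n = 3) and c-MYC/FOXO1AAA (n = 3), with a point per library and a line at the group mean. Hamp falls from 4264 FPKM or more in NL to at most 39.6 in the tumours, and Tfrc reaches at most 6.84 FPKM in NL and at least 24.7 in the tumours.

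**Figure D2:**
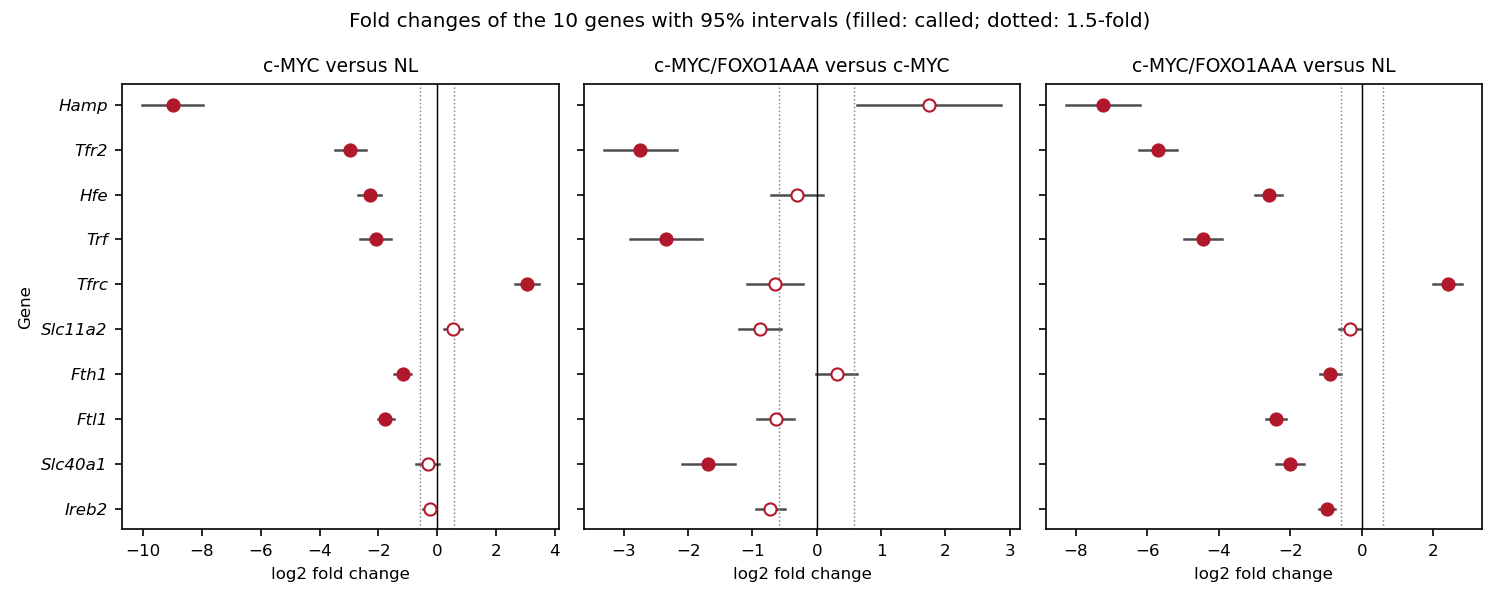
Log2 fold changes of the 10 genes in the 3 comparisons with 95% intervals from limma. Filled points passed the test and dotted lines mark a 1.5-fold change. Hamp has the largest decrease in both comparisons with NL, and Tfr2, Trf and Slc40a1 are the filled points in the comparison of the tumour groups.

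Hamp (chromosome 7, 30942368 to 30944032, minus strand) was abundant in NL and low in both tumour groups. The NL libraries held 4264, 4919, 5352 and 4685 FPKM. The c-MYC libraries held 4.54, 7.02 and 26.05 FPKM, from 32, 52 and 194 reads. In c-MYC/FOXO1AAA the libraries held 25.4, 31.0 and 39.6 FPKM, from 254, 376 and 316 reads. The NL and tumour values were far apart, and among the tumours c-MYC 3 reached into the c-MYC/FOXO1AAA range. The mean fell from 4805 ± 454 FPKM (n = 4, SD) to 12.5 ± 11.8 FPKM (n = 3, SD) in c-MYC and 32.0 ± 7.13 FPKM (n = 3, SD) in c-MYC/FOXO1AAA, or 0.261% and 0.666% of NL. The log2 fold change to NL was -8.99 in c-MYC (SE 0.47, limma adjusted p 1.09e-07) and -7.25 in c-MYC/FOXO1AAA (SE 0.47, limma adjusted p 3.42e-07).

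Between the tumour groups, Hamp was 3.35-fold higher in c-MYC/FOXO1AAA than in the c-MYC group, which did not pass the test (log2 fold change 1.74, 95% interval 0.63 to 2.86, limma adjusted p 0.0726). Over 18 alternatives the adjusted p ran from 6.75e-05 to 0.339, and 5 of them passed. Without c-MYC 3 the log2 fold change was 2.48 (limma adjusted p 6.75e-05). With any other single tumour library left out it did not pass. It ran from 1.22 without c-MYC 1 (limma adjusted p 0.269) to 1.90 without c-MYC/FOXO1AAA 1 (limma adjusted p 0.0959).

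Hepatocyte markers went in both directions between the tumour groups, and Cyp3a11, Cyp2e1, Tat, G6pc and Alb were picked after their values were seen. Of the 12 markers, c-MYC/FOXO1AAA had 2 higher and 7 lower than the c-MYC group, with a median log2 fold change of -2.14. The largest called changes were decreases. As means, Ass1 went from 29.7% of NL in c-MYC to 1.61% in c-MYC/FOXO1AAA, Hnf4a from 51.5% to 3.92% and Ttr from 12.4% to 1.29%. Cyp3a11, a cytochrome P450 of hepatocytes, was at 0.282%, 0.178% and 0.944% of its NL mean in c-MYC 1, 2 and 3. Cyp2e1, another cytochrome P450, was at 0.127%, 0.0363% and 0.355%, and Tat, which breaks down tyrosine, at 0.0768%, 0.0723% and 0.201%. In each of these genes c-MYC 3 was the highest c-MYC library, as it was for Hamp at 0.542%. In c-MYC/FOXO1AAA, Cyp3a11 lay between 0.906% and 1.28%, Cyp2e1 between 0.605% and 1.11% and Tat between 0.486% and 0.615%, beside 0.529% to 0.824% for Hamp. G6pc, the glucose-releasing phosphatase of hepatocytes, was at 3.1%, 2.12% and 6.63% in c-MYC but at 0.664%, 0.561% and 3.46% in c-MYC/FOXO1AAA. For albumin (Alb) the highest c-MYC library was c-MYC 2, with 1.19%, 3.33% and 1.3%. The part of the remaining hepatocyte signal in the tumour values of Hamp was not tested.

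**Figure D3:**
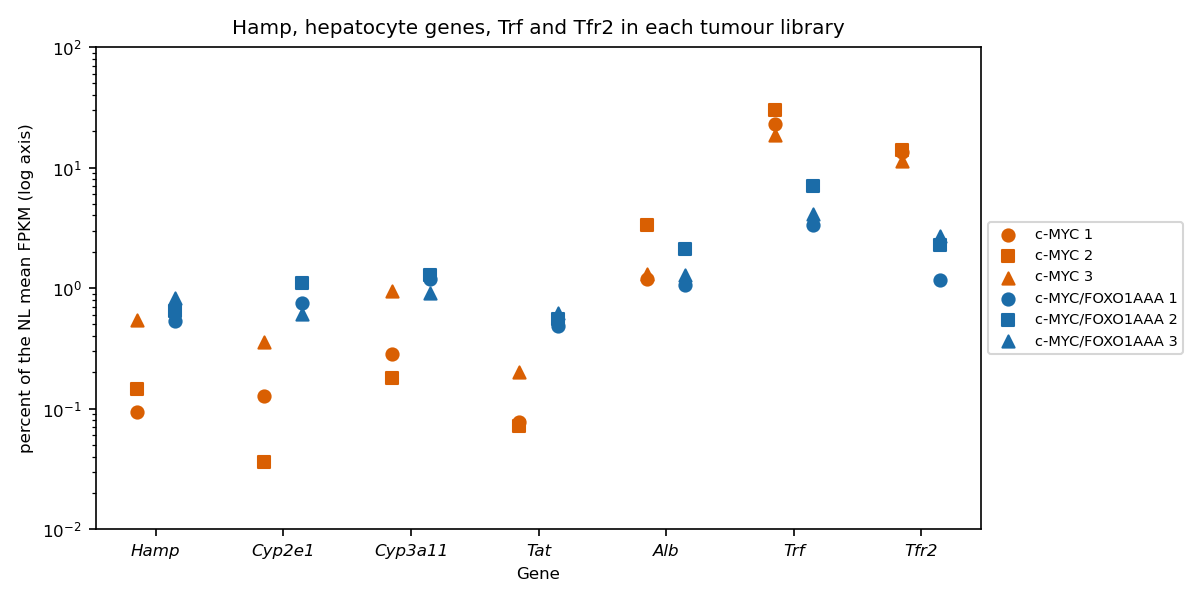
Level of Hamp, 4 hepatocyte genes, Trf and Tfr2 in each tumour library as a percent of the NL mean FPKM, on a log axis. Symbols mark the replicate and colours the group. Hamp, Cyp2e1, Cyp3a11 and Tat lie below 2% in all 6 libraries and are highest in c-MYC 3 among the c-MYC libraries, while Trf and Tfr2 are highest in c-MYC.

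Hamp2, a close copy of Hamp whose reads could be split with it in counting, had 100, 220, 117 and 61 reads in NL, 0 in all 3 c-MYC libraries and 5, 4 and 2 in c-MYC/FOXO1AAA. Its NL mean of 30.7 FPKM was at least 79.0-fold higher than a floor of 3 reads in a c-MYC library. At its NL level Hamp2 was small beside Hamp.

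Tfr2, transferrin receptor 2, is a hepatocyte sensor of loaded transferrin (chromosome 5, 137569840 to 137587481, plus strand). Its values were 284, 242, 292 and 286 FPKM in NL, 36.9, 38.9 and 31.6 in c-MYC and 3.20, 6.29 and 7.41 in c-MYC/FOXO1AAA. The 3 groups did not overlap and fell in that order. Tfr2 was 7.72-fold lower in c-MYC than in NL (log2 fold change -2.95, SE 0.24, limma adjusted p 6.03e-06). It was a further 6.72-fold lower in c-MYC/FOXO1AAA than in the c-MYC group (log2 fold change -2.75, SE 0.25, limma adjusted p 3.65e-05).

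Hfe, the membrane protein mutated in the common form of haemochromatosis, pairs with the transferrin receptors (chromosome 13, 23702034 to 23710854, minus strand). It held 56.0, 60.7, 60.4 and 63.4 FPKM in NL, 10.5, 16.1 and 10.7 in c-MYC and 8.40, 9.25 and 12.4 in c-MYC/FOXO1AAA. Both tumour groups lay below NL and overlapped with each other. The decrease to c-MYC was 4.93-fold (log2 fold change -2.30, SE 0.17, limma adjusted p 4.7e-06). The tumour groups differed by -0.30 on the log2 scale, with a 95% interval of -0.71 to 0.10.

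A list of 26 measured genes of hepcidin control held ligands, receptors, transducers and targets of the BMP and interleukin 6 routes. In c-MYC compared with NL, 12 were lower and 3 higher, beside 23.6% and 24.5% of all genes. The median log2 fold change was -0.81 against 0.08 over all genes tested. In c-MYC/FOXO1AAA compared with c-MYC, 11 were higher and 3 lower, beside 15.9% and 12.7% of all genes, and the median was 0.93 against 0.03. With libraries set to the same FPKM total, which raised the median of all genes in c-MYC versus NL from 0.08 to 1.01, the first split was 10 lower and 7 higher with a median of 0.12, and the second 13 higher and 2 lower.

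Among the ligands, Bmp2, Bmp4 and Bmp6 were lower in c-MYC than in NL. Bmp6, the BMP that the liver endothelium makes when iron is high, was at 1.96 ± 0.486 FPKM (n = 4, SD) in NL, 0.174 ± 0.0475 FPKM (n = 3, SD) in c-MYC and 0.554 ± 0.339 FPKM (n = 3, SD) in c-MYC/FOXO1AAA. Its change to c-MYC was -3.50 on the log2 scale, and its difference between the tumour groups did not pass the test (1.54, limma adjusted p 0.0885). Bmp6 reached 1 FPKM in NL libraries only, so it entered testing through the group where it was high. The p of its change from NL is therefore left out. Bmp4 rested on 62 to 87 reads in NL, 5 or 6 in c-MYC and 219 to 312 in c-MYC/FOXO1AAA. Its log2 fold change was -4.25 in c-MYC against NL, and it was 4.62 higher in c-MYC/FOXO1AAA than in the c-MYC group (limma adjusted p 1.94e-08 and 4.76e-08). Bmp7 went the other way, with 0.676 FPKM in NL and 4.42 in c-MYC (log2 fold change 2.75, limma adjusted p 0.000134). Erythroferrone (Erfe), a hormone that binds BMPs, and Fkbp1a, which binds type I receptors, were the other genes of the list that were higher in c-MYC. Erfe was at 0.187 FPKM in NL and 2.11 in c-MYC (log2 fold change 3.92), and Fkbp1a at 43.9 and 152.4 (1.8, limma adjusted p 6.78e-07). Erfe reached 1 FPKM in c-MYC libraries only, so it entered testing through the group where it was high. Its p is therefore left out, though the count of higher genes includes it. The Erfe values rest on 0 to 12 reads in NL and 77 to 137 in c-MYC. Fgl1 had the largest change of the list in c-MYC versus NL and went the other way. It was at 110.4 FPKM in NL, 0.925 in c-MYC and 5.06 in c-MYC/FOXO1AAA.

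Cells other than hepatocytes also make these ligands. Of 10 tested sinusoidal endothelial markers, 7 were lower and 0 higher in c-MYC than in NL, and 7 were lower and 1 higher in c-MYC/FOXO1AAA than in NL. The summed level of the 11 measured markers was 20.8% to 35% of the NL mean in c-MYC and 40.2% to 56.8% in c-MYC/FOXO1AAA. Without Cdh5, an adhesion protein of all endothelium with 4.61 FPKM in NL, 4.61 in c-MYC and 25.95 in c-MYC/FOXO1AAA, the sum was 16.1% to 29.1% and 12.9% to 18.7%. Cdh5 was left out after its values were seen. The summed level of 10 stellate cell markers was 7.57% to 24.9% in c-MYC and 203% to 254% in c-MYC/FOXO1AAA, where 6 of the 10 were higher than in c-MYC and 0 lower. Against NL, c-MYC/FOXO1AAA had 5 of the 10 higher and 3 lower, so this sum joined markers that moved in opposite directions. Dcn was the most abundant there at 235.7 FPKM (338% of NL), while Lrat and Ecm1 were at 7.21% and 7.08% of NL. Clec4g, a lectin of the sinusoidal endothelium, was at 33.6 FPKM in NL, 0.227 in c-MYC and 0.571 in c-MYC/FOXO1AAA, and Des (desmin) at 2.17, 0.916 and 62.7 FPKM. The part of these cells in the values of the ligands, and of Id3 and Atoh8 given next, was not tested.

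Among the receptors and their partners, hemojuvelin (listed as Hfe2), the BMP co-receptor that hepatocytes need for hepcidin, held 53.7, 62.9, 54.5 and 54.3 FPKM in NL. It held 27.2, 41.6 and 47.9 FPKM in c-MYC and 3.20, 3.84 and 4.33 in c-MYC/FOXO1AAA. The c-MYC group did not differ from NL past the threshold (log2 fold change -0.57, limma adjusted p 0.771, and 0.36 with equal FPKM totals). The c-MYC/FOXO1AAA group differed from c-MYC by -3.33 log2 units (limma adjusted p 8.64e-07). Tmprss6, the protease that cleaves hemojuvelin and thereby restrains hepcidin, stood at 624 ± 24.5 FPKM (n = 4, SD) in NL, 34.7 ± 10.5 FPKM (n = 3, SD) in c-MYC and 13.1 ± 3.77 FPKM (n = 3, SD) in c-MYC/FOXO1AAA. Its log2 fold change to c-MYC was -4.22 (limma adjusted p 2.06e-07). The further change of -1.41 between the tumour groups (limma adjusted p 0.0152) did not pass without c-MYC 2 (-1.20, adjusted p 0.0637) or without c-MYC/FOXO1AAA 1 (-1.14, adjusted p 0.0527). Neo1, which holds hemojuvelin at the membrane, rose from 3.07 ± 0.771 FPKM (n = 3, SD) in c-MYC to 12.6 ± 2.66 FPKM (n = 3, SD) in c-MYC/FOXO1AAA (log2 fold change 2.04, limma adjusted p 0.000108). Bmpr2, Acvr2a and Smad5, receptors and a transducer of BMP signals, were higher by 1.29, 1.24 and 1.27 log2 units (limma adjusted p 0.00354, 0.00498 and 0.00104), of which Bmpr2 did not pass under quantile normalization (0.97, adjusted p 0.0714). The type I receptors Bmpr1a and Acvr1 did not pass, with 9.73 and 5.13 FPKM in c-MYC and 11.43 and 4.42 in c-MYC/FOXO1AAA.

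Id3 and Atoh8, which BMP signals switch on, showed the largest opposite changes of the list. Id3 held 64.6 to 77.7 FPKM in NL, 2.78, 1.63 and 4.01 in c-MYC and 135, 118 and 89.7 in c-MYC/FOXO1AAA. Atoh8 had 230 to 317 reads in NL, 5, 2 and 5 in c-MYC and 1517, 1303 and 719 in c-MYC/FOXO1AAA. Neither gene overlapped between any of the 3 groups, and c-MYC was the lowest in both. Between the tumour groups the log2 fold change was 5.42 for Id3 and 7.15 for Atoh8 (limma adjusted p 2.67e-07 and 2.6e-08). Id1 was higher by 1.86 (limma adjusted p 0.00103), and Smad7, which is also a target, by 0.24 (adjusted p 1). In the same tumours Hamp was at 0.666% of NL, Id3 at 160% and Atoh8 at 167%. Of 7 tested genes of a BMP response list, 4 were lower and 0 higher in c-MYC than in NL, beside 23.6% and 24.5% of all genes. With equal FPKM totals 3 were lower and 2 higher, and the median log2 fold change was -0.25 in place of -1.18. Between the tumour groups 3 were higher in c-MYC/FOXO1AAA, namely Atoh8, Id3 and Id1 again, and 2 were lower, beside 15.9% and 12.7% of all genes. Id2, the most abundant gene of that list, was among the lower ones. It was at 188 FPKM in NL, 48.5 in c-MYC and 21.1 in c-MYC/FOXO1AAA, or 11.2% of NL. Its call between the tumour groups was lost without c-MYC/FOXO1AAA 1 (log2 fold change -1.04, limma adjusted p 0.0603).

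Of the interleukin 6 route, the receptor subunits Il6ra and Il6st and the transcription factor Stat3 were lower in c-MYC than in NL, as log2 fold changes -2.16, -2.46 and -1.24 (limma adjusted p 4.32e-06, 3.7e-06 and 0.00357). The Stat3 change did not pass with equal FPKM totals (-0.31, adjusted p 1). Il6st was 2.93 log2 units higher in c-MYC/FOXO1AAA than in the c-MYC group (limma adjusted p 2.56e-06), and Stat3 differed by -0.12 (adjusted p 1). Of 16 acute phase and STAT3 response genes, 13 were lower and 0 higher in c-MYC than in NL, beside 23.6% and 24.5% of all genes. Their median was -3.63. With equal FPKM totals 9 were lower and 0 higher, and the median was -2.71. Orm1, an acute phase glycoprotein, went from 1209 ± 140 FPKM (n = 4, SD) to 2.02 ± 2.02 FPKM (n = 3, SD) and 23.6 ± 2.81 FPKM (n = 3, SD). In c-MYC/FOXO1AAA compared with c-MYC, 7 were higher and 5 lower, beside 15.9% and 12.7% of all genes. Under quantile normalization 5 were higher and 6 lower. Saa1, Orm1 and Serpina3n were among the higher genes, by 4.3, 4.12 and 5.08 log2 units, and the fibrinogen chains Fga, Fgb and Fgg among the lower, by -3.69, -3.14 and -3.56.

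**Figure D4:**
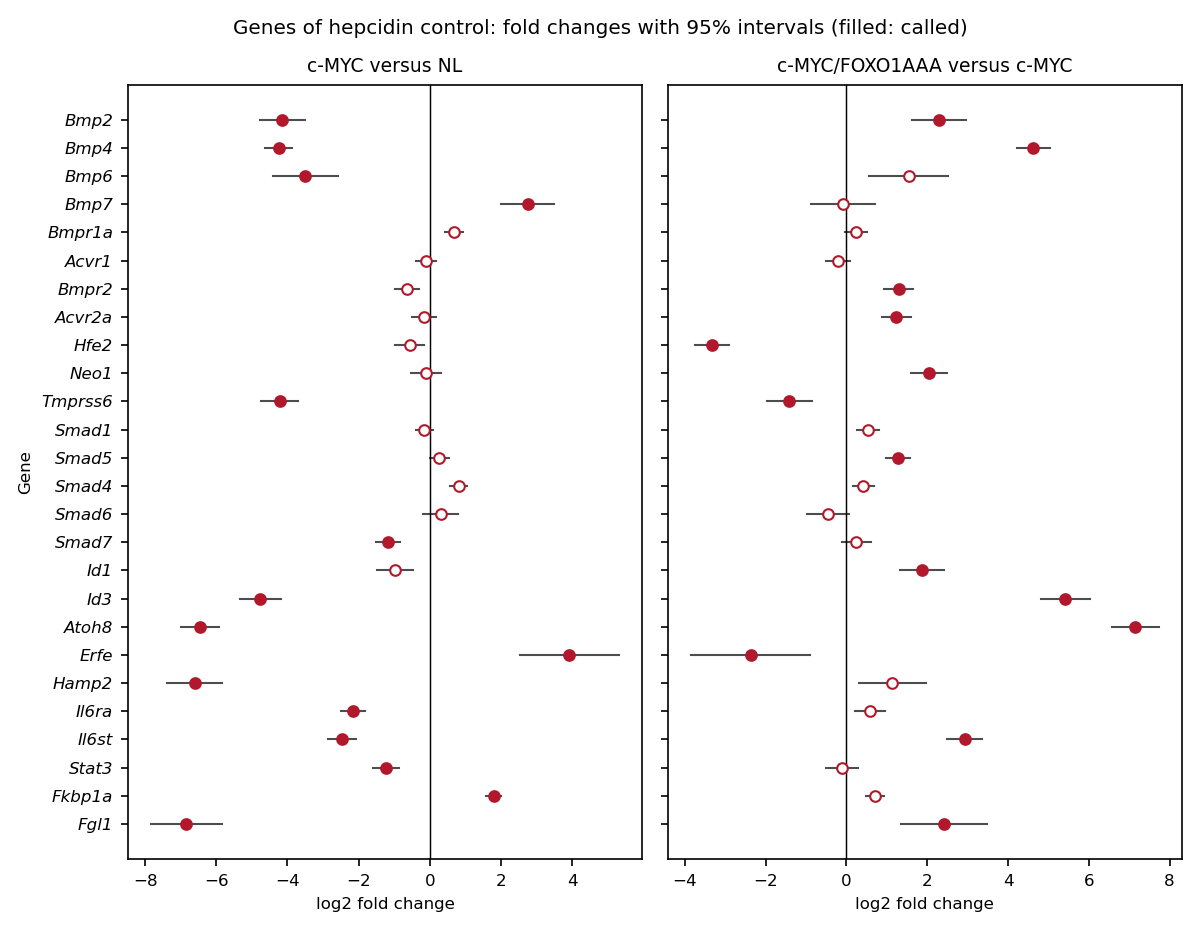
Log2 fold changes with 95% intervals for the 26 measured genes of hepcidin control in c-MYC versus NL and in c-MYC/FOXO1AAA versus c-MYC. Filled points passed the test. Bmp4, Id3 and Atoh8 lie left of 0 in the first comparison and right of 0 in the second, while Tmprss6 lies left of 0 in both.

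Trf encodes transferrin, the iron carrier of plasma that hepatocytes secrete (chromosome 9, 103204001 to 103230444, minus strand). The NL libraries held 13297, 11273, 10843 and 12399 FPKM. The c-MYC libraries held 2724, 3563 and 2236 FPKM, and the c-MYC/FOXO1AAA libraries 396, 838 and 494 FPKM. The 3 groups fell in this order with no overlap. Trf was 4.27-fold lower in c-MYC than in NL (log2 fold change -2.09, SE 0.24, limma adjusted p 0.000146), but under quantile normalization the change was -0.19 and did not pass (adjusted p 1). Between the tumour groups it was 5.09-fold lower in c-MYC/FOXO1AAA (log2 fold change -2.35, SE 0.25, limma adjusted p 0.000145), with -2.66 to -2.12 over the alternatives. The mean of c-MYC/FOXO1AAA was 4.82% of NL.

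Tfrc, transferrin receptor 1, takes up loaded transferrin and is known to be high in dividing cells (chromosome 16, 32608920 to 32632794, plus strand). It was the member that rose. Its values were 6.84, 5.19, 4.05 and 4.17 FPKM in NL, 33.8, 45.3 and 45.4 in c-MYC and 27.0, 27.2 and 24.7 in c-MYC/FOXO1AAA. Every c-MYC/FOXO1AAA library lay between the NL and the c-MYC libraries. Tfrc was 8.32-fold higher in c-MYC than in NL (log2 fold change 3.06, SE 0.18, limma adjusted p 5.02e-07) and 5.31-fold higher in c-MYC/FOXO1AAA than in NL (2.41, SE 0.18, limma adjusted p 3.15e-06). The difference between the tumour groups was -0.65 (95% interval -1.08 to -0.22) and did not pass the test for a change above 1.5-fold (limma adjusted p 0.811). Without a fold threshold it passed (adjusted p 0.0157).

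All 8 proliferation markers were higher in c-MYC and in c-MYC/FOXO1AAA than in NL, with medians of 4.53 and 4.3 log2 units, and their summed level was 891% to 976% and 745% to 853% of NL. Between the tumour groups 0 of 8 were called at an adjusted p under 0.05, and 0 had an unadjusted p under 0.05 (limma treat). Their median log2 fold change there was -0.42, so the absence of calls does not mean equal levels. Mki67 was at 19.4 to 26.6 FPKM in c-MYC and 12.2 to 14.4 in c-MYC/FOXO1AAA. Top2a, Ccnb1 and Cdk1 were also lower in c-MYC/FOXO1AAA without overlap. Pcna went the other way without overlap, at 112 to 131 FPKM in c-MYC and 158 to 164 in c-MYC/FOXO1AAA. Erythroid markers, which mark another cell type rich in Tfrc, lay at 8.83% to 15.7% of NL in c-MYC and 14.6% to 35.7% in c-MYC/FOXO1AAA as a sum over 9 genes that globins dominated. Of the 6 tested, 5 were lower in c-MYC than in NL, while Epor, the erythropoietin receptor, was at 1.61 FPKM in NL, 0.782 in c-MYC and 2.57 in c-MYC/FOXO1AAA. The part of dividing and of erythroid cells in the Tfrc values was not tested.

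Slc11a2 (DMT1) carries ferrous iron across membranes (chromosome 15, 100387898 to 100425072, minus strand). It held 53.8, 55.2, 44.8 and 48.9 FPKM in NL, 60.7, 84.8 and 76.9 in c-MYC and 41.8, 44.8 and 34.1 in c-MYC/FOXO1AAA. The c-MYC libraries lay above the others, and NL and c-MYC/FOXO1AAA overlapped. None of its comparisons passed the test. Against NL, c-MYC was higher by 0.54 (95% interval 0.23 to 0.85, limma adjusted p 0.878), and with equal FPKM totals by 1.47, which passed (adjusted p 0.000181). In c-MYC/FOXO1AAA the log2 difference from c-MYC was -0.88 (95% interval -1.21 to -0.55, limma adjusted p 0.119). That difference passed with equal medians (-0.96, adjusted p 0.0462) and without c-MYC 1 (-1.01, adjusted p 0.0299).

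A further list held 15 tested genes of iron, haem and haemoglobin uptake and of iron reduction. In c-MYC compared with NL, 10 were lower and 2 higher, with a median of -1.91, beside 23.6% and 24.5% of all genes. With equal FPKM totals 8 were lower and 3 higher, and the median was -0.98. Hp and Hpx, the plasma proteins that bind free haemoglobin and haem, were the most abundant. Hp went from 3624 ± 1018 FPKM (n = 4, SD) in NL to 23.9 ± 19.2 FPKM (n = 3, SD) in c-MYC and 237 ± 119 FPKM (n = 3, SD) in c-MYC/FOXO1AAA. Its log2 fold change was -7.48 in c-MYC against NL, and it was 3.49 higher in c-MYC/FOXO1AAA than in the c-MYC group (limma adjusted p 5.19e-07 and 0.000677). Slc39a14 (ZIP14), a carrier of free iron into hepatocytes, was lower in c-MYC than in NL (log2 fold change -1.93, limma adjusted p 5.9e-06).

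The 2 genes called higher in c-MYC were Steap1 and Steap2, of a family that includes metalloreductases. Steap2 went from 2.02 ± 0.245 FPKM (n = 4, SD) to 14.6 ± 3.47 FPKM (n = 3, SD) and back to 1.15 ± 0.839 FPKM (n = 3, SD) in c-MYC/FOXO1AAA. Steap1 was 4.58 log2 units higher in c-MYC than in NL, and its log2 fold change from there to c-MYC/FOXO1AAA was -4.77. Steap1 reached 1 FPKM in c-MYC libraries only, so it entered testing through the group where it was high. Its p-values are therefore left out. Its values rest on 0 to 4 reads in NL, 97 to 140 in c-MYC and 0 to 9 in c-MYC/FOXO1AAA. The size of both Steap1 changes therefore depends on the prior count held in the FPKM. Steap4 was lower in c-MYC (log2 fold change -5.27, limma adjusted p 1.21e-06). In all, c-MYC/FOXO1AAA had 4 genes of the list higher and 3 lower than the c-MYC group, beside 15.9% and 12.7% of all genes. Steap1 was among the lower ones.

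Fth1 and Ftl1 encode the heavy and light chains of ferritin, the iron store of the cell. Fth1 (chromosome 19, 9980598 to 9985098, plus strand) held 2259, 2293, 2270 and 2084 FPKM in NL, 1151, 808 and 1012 in c-MYC and 1240, 1065 and 1345 in c-MYC/FOXO1AAA. Both tumour groups were below NL and overlapped with each other. The log2 fold change to NL was -1.18 in c-MYC (SE 0.13, limma adjusted p 0.00144), but -0.26 with equal FPKM totals and -0.24 under quantile normalization, neither of which passed. In c-MYC/FOXO1AAA it was -0.88 (SE 0.13, limma adjusted p 0.0432), and the sign turned with equal FPKM totals (0.22) and under quantile normalization (0.13). That call was also lost without NL 1, NL 2, NL 3, c-MYC/FOXO1AAA 1 or c-MYC/FOXO1AAA 2, with adjusted p from 0.0673 to 0.168.

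Ftl1 (chromosome 7, 45457944 to 45459884, minus strand) held 3231, 3265, 2994 and 3134 FPKM in NL, 960, 814 and 1038 in c-MYC and 514, 600 and 693 in c-MYC/FOXO1AAA. The groups fell in this order with no overlap. Ftl1 was 3.38-fold lower in c-MYC than in NL (log2 fold change -1.76, SE 0.12, limma adjusted p 7.08e-06), or -0.71 under quantile normalization, which did not pass (adjusted p 0.228). The tumour groups differed by -0.64 (95% interval -0.93 to -0.35, limma adjusted p 0.745). Pseudogene copies of the ferritin genes are near-identical to them, so reads could have been split in counting.

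The ratio of the chains within a library does not depend on how libraries are scaled. These ratios were chosen after the values were seen. Ftl1 to Fth1 was 1.431, 1.424, 1.319 and 1.504 in NL, 0.834, 1.01 and 1.02 in c-MYC and 0.414, 0.563 and 0.515 in c-MYC/FOXO1AAA. No groups overlapped, and at the lengths the authors used (968 bp for Ftl1, 866 bp for Fth1) the light chain exceeded the heavy chain in every NL library and in none of the c-MYC/FOXO1AAA libraries. The ratio was 2.87-fold lower in c-MYC/FOXO1AAA than in NL (exact permutation test, 2-sided, p = 0.0571, the smallest that 3 against 4 samples allow) and 1.93-fold lower than in c-MYC (exact permutation test, p = 0.1, the smallest for 3 against 3). The level of Tfrc relative to Fth1 was 18.9-fold higher in c-MYC than in NL and 9.75-fold higher in c-MYC/FOXO1AAA. Tfrc relative to Tfr2 rose from 0.0185 ± 0.00504 (SD, n = 4) to 1.17 ± 0.261 (SD, n = 3) and 5.36 ± 2.70 (SD, n = 3), so that receptor 1 exceeded receptor 2 in every c-MYC/FOXO1AAA library and in c-MYC 2 and 3. Over the 9 comparisons of 3 ratios, the adjusted p was 0.0857 against NL and 0.1 between the tumour groups, and all 9 had no overlap.

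**Figure D5:**
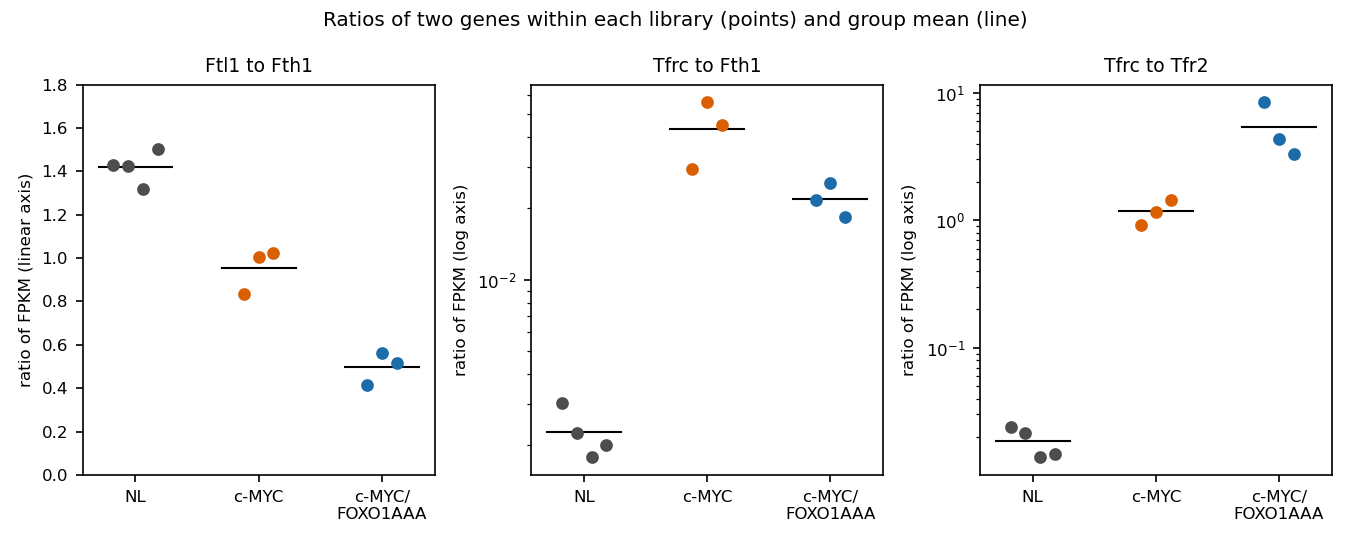
Ratios of FPKM within each library for Ftl1 to Fth1 (linear axis from 0), Tfrc to Fth1 and Tfrc to Tfr2 (log axes). Points are libraries and lines group means. Ftl1 to Fth1 steps down from 1.42 in NL to 0.956 in c-MYC and 0.498 in c-MYC/FOXO1AAA, and Tfrc to Tfr2 steps up.

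Slc40a1 encodes ferroportin, the exporter that hepcidin removes (chromosome 1, 45908068 to 45926523, minus strand). It held 650, 488, 630 and 681 FPKM in NL, 438, 653 and 398 in c-MYC and 146, 143 and 164 in c-MYC/FOXO1AAA. NL and c-MYC overlapped, and every c-MYC/FOXO1AAA library was below both. The c-MYC group differed from NL by -0.33 (95% interval -0.71 to 0.06, limma adjusted p 1), and the sign turned with equal FPKM totals (0.6) and under quantile normalization (0.5). Slc40a1 was 3.22-fold lower in c-MYC/FOXO1AAA than in the c-MYC group (log2 fold change -1.69, SE 0.19, limma adjusted p 0.000422), and all 18 alternatives passed, from -1.83 to -1.43. Against NL the log2 fold change was -2.01 (limma adjusted p 1.44e-05), which did not pass with equal FPKM totals (-0.91, adjusted p 0.0589) or under quantile normalization (-0.94, adjusted p 0.0752).

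Macrophages, which recycle iron from red cells, also express ferroportin. Of 13 Kupffer cell and macrophage markers, c-MYC/FOXO1AAA had 1 higher and 2 lower than the c-MYC group. The higher one was Clec4f (log2 fold change 2.2, limma adjusted p 0.0237), which did not pass without c-MYC/FOXO1AAA 1 (adjusted p 0.0541) or 2 (adjusted p 0.087). The lower ones were Cd5l (10.8 against 64.2 FPKM, log2 fold change -2.64, limma adjusted p 0.000598) and Timd4 (0.634 against 6.28 FPKM, -3.38, limma adjusted p 3.94e-05), and C1qa differed by -0.50 (adjusted p 1). The summed level of the 13 was 101% to 115% of the NL mean in c-MYC and 49.1% to 83.7% in c-MYC/FOXO1AAA. This sum joined markers that moved in opposite directions, since Clec4f and Vsig4 were at 2.24% and 4.19% of NL in c-MYC and Lyz2 and Cd68 at 481% and 491%. Their part in the Slc40a1 difference was not tested.

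In a list of 14 tested genes of iron storage, export and ferritin turnover, 4 were lower and 3 higher in c-MYC than in NL, near the 23.6% and 24.5% of all genes. With equal FPKM totals, 4 were lower and 6 higher, and the median log2 fold change was 0.89 in place of -0.03. Cp, ceruloplasmin, the plasma ferroxidase that works with ferroportin, went from 347 ± 30.6 FPKM (n = 4, SD) to 11.2 ± 3.57 FPKM (n = 3, SD) and 56.3 ± 7.37 FPKM (n = 3, SD) in c-MYC/FOXO1AAA. Its log2 fold change was -5.0 in c-MYC against NL, and it was 2.37 higher in c-MYC/FOXO1AAA than in the c-MYC group (limma adjusted p 1.07e-08 and 2.67e-05). Pcbp1, a chaperone that hands iron to ferritin, was higher in c-MYC by 1.18 (limma adjusted p 0.00044). In c-MYC/FOXO1AAA compared with c-MYC, 4 were higher and 3 lower, beside 15.9% and 12.7% of all genes.

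Ireb2 encodes iron regulatory protein 2, which binds the hairpins shown above (chromosome 9, 54863789 to 54912530, plus strand). It held 21.5, 21.5, 25.2 and 22.1 FPKM in NL, 19.1, 19.8 and 17.8 in c-MYC and 11.3, 10.7 and 12.5 in c-MYC/FOXO1AAA. The groups fell in this order with no overlap but with small steps. The change from NL to c-MYC was -0.25 (95% interval -0.47 to -0.04, limma adjusted p 1) and that between the tumour groups -0.72 (95% interval -0.95 to -0.49, limma adjusted p 0.301), and neither passed. Against NL, c-MYC/FOXO1AAA was lower (log2 fold change -0.97, limma adjusted p 0.00262). The sign of this change turned with equal FPKM totals (0.12), as did that of c-MYC against NL (0.67).

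Aco1, iron regulatory protein 1, which serves as an aconitase when iron is plentiful, held 115, 105, 102 and 102 FPKM in NL, 44.2, 57.8 and 50.1 in c-MYC and 13.7, 14.7 and 16.6 in c-MYC/FOXO1AAA. The groups fell in this order with no overlap. Its log2 fold change from c-MYC to c-MYC/FOXO1AAA was -1.75 (limma adjusted p 1.11e-05). Its change of -1.07 from NL to c-MYC (limma adjusted p 0.00181) did not pass with equal FPKM totals (-0.14) or under quantile normalization (-0.74). Fbxl5, the iron sensor that removes Ireb2 protein, did not pass in any comparison, with 18.9 ± 0.802 FPKM (n = 4, SD), 23.6 ± 0.976 FPKM (n = 3, SD) and 21.4 ± 1.56 FPKM (n = 3, SD). With equal FPKM totals Fbxl5 was higher than NL in c-MYC (1.25, limma adjusted p 2.2e-05) and in c-MYC/FOXO1AAA (1.28, limma adjusted p 1.15e-05). Epas1 (HIF-2α) was lower in c-MYC than in NL (log2 fold change -4.26, limma adjusted p 1.52e-07), and Egln3, an oxygen and iron dependent hydroxylase, was 2.69 higher there, with a log2 fold change of -2.48 from c-MYC to c-MYC/FOXO1AAA (limma adjusted p 2.92e-06 and 2.11e-05). Of the 9 genes of the sensing list, 4 were lower and 2 higher in c-MYC than in NL, beside 23.6% and 24.5% of all genes. The c-MYC/FOXO1AAA group had 3 lower and 0 higher than c-MYC, beside 12.7% and 15.9%, and 3 had an unadjusted p under 0.05 there. The lists share genes, since Tmprss6 is also in the hepcidin list and Slc39a14 in the uptake list. With equal FPKM totals, 3 were lower and 4 higher in c-MYC than in NL, and the median log2 fold change was 0.66 in place of -0.26.

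Mitochondria use iron for haem and for iron-sulphur clusters. Of 37 tested genes of mitochondrial iron, haem and iron-sulphur clusters, 11 were lower and 3 higher in c-MYC than in NL, with a median of -0.25, beside 23.6% and 24.5% of all genes. With equal FPKM totals 5 were lower and 17 higher there. In c-MYC/FOXO1AAA compared with c-MYC, 9 were lower and 0 higher, with a median of -0.57, beside 12.7% and 15.9% of all genes. Alas1 and Fech, the first and last enzymes of haem synthesis, were lower in c-MYC than in NL (log2 fold changes -3.68 and -2.44, limma adjusted p 1.02e-05 and 9.05e-08). Nfs1, the cysteine desulphurase of cluster assembly, and Abcb10, a carrier of the inner membrane, were both lower in c-MYC/FOXO1AAA than in the c-MYC group (log2 fold changes -1.4 and -2.07, limma adjusted p 7.99e-05 and 1.04e-05).

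Levels of different genes can be compared only as far as the gene length behind an FPKM is right. The lengths recovered from the values were 410 bp for Hamp and 4890 bp for Tfrc, which are their longest coding transcripts. For Slc40a1, Slc11a2 and Hfe they were 370, 709 and 816 bp, against longest coding transcripts of 3370, 4415 and 3572 bp, so their FPKM would be 9.11, 6.23 and 4.38 times lower per full-length transcript. Fold changes within a gene are not touched by this. At the longest coding length the order in NL was Trf, Hamp, Ftl1, Fth1, Tfr2, Slc40a1, Ireb2, Hfe, Slc11a2 and Tfrc. Tfrc, the lowest of the 10 in NL, had rank 5 of 10 in both tumour groups. Hamp moved from rank 2 in NL to rank 8 in c-MYC and rank 4 in c-MYC/FOXO1AAA.

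The genes whose log2 FPKM followed Hamp most closely over the 10 libraries, out of 6613 genes averaging 10 FPKM or more, were Ang, Prnp, Hsd3b3, Gm32872 and Asgr1, with Pearson's r from 0.997 to 0.998. Asgr1, a subunit of the asialoglycoprotein receptor of hepatocytes, averaged 636, 5.47 and 9.98 FPKM in NL, c-MYC and c-MYC/FOXO1AAA. Those nearest to Tfrc were Nup88, Cse1l, Akap8, Nup85 and Rfwd3, with r from 0.993 to 0.996. Nup85, a nuclear pore protein, averaged 10.2, 57.4 and 38.6 FPKM. The points share the group structure of the libraries, and these likenesses are descriptions.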

How the data were processed

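RNA sequencing of mouse liver was analysed in 10 libraries, grouped by the sample titles. The deposited values are log2 FPKM that the authors calculated with a prior count added, and the values showed a prior count of 2. The submitters' processing notes name GRCm38 and FastQC 0.11.7. The aligner and counter are not given in the sources used here. The authors scaled library sizes, with factors from 0.649 to 1.502.

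Of 17069 rows, 372 without a symbol were left out. Whole reads were recovered by trying gene lengths up to 130000 bp (tolerance 0.001 read), with a single solution for 99.96% of genes. Printed FPKM are back-transformed and hold the prior count. Counting intervals and the floor of 3 reads cover counting error only.

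Genes reaching 1 FPKM in 3 libraries or more were tested with limma 3.58.1 (R 4.3.3, statmod 1.5.0) over all 10 libraries, using treat with a 1.5-fold threshold, trend and robust estimation and Benjamini-Hochberg adjustment over 14017 genes. The 95% intervals are from the same fit. The code was tested on simulated data. Ratios were tested with exact permutation in scipy 1.17.1. The members and gene lists were chosen with earlier results of these data known, and list counts carry no test.

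The rule allowed for naming the 10 members, every gene of the hepcidin and sensing lists, and for other lists the 4 most abundant genes and the 3 called genes with the largest change in c-MYC versus NL and in c-MYC/FOXO1AAA versus c-MYC. Not every gene it allows is named. For Hamp and Tfrc the 5 most similar genes were named. Alternatives were a pseudocount of 0.1 or 1, the filter dropped or set at a mean of 5 FPKM, equal FPKM totals, equal medians, quantile normalization, no threshold or 2-fold, trend and robust estimation off, only the 2 groups compared, the replicate number as a block, and each library left out.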

Additional observations from a re-analysis of the deposited data

Results flagged for a closer look

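Of the 10 members in the 4 NL libraries, 2 had a library far from the other 3 by Dixon's criterion, where chance flags about 1 in 20 groups. Tfr2 was at 242 FPKM in NL 2 against 284 to 292 FPKM in the other NL libraries. Fth1 was at 2084 FPKM in NL 4 against 2259 to 2293 FPKM in the others. Both values stayed above every tumour library of the same gene. Groups of 3 were not examined in this way.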

How the results depend on the processing

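The 10 members kept their direction and their side of the threshold in 179 of 190 values in c-MYC versus NL, 169 of 180 between the tumour groups and 174 of 190 in c-MYC/FOXO1AAA versus NL. The cause was not tested for any change below. In c-MYC versus NL, 6740 genes and 7 members were called, and 10432 genes without a fold threshold and 4 members under quantile normalization. In c-MYC/FOXO1AAA versus c-MYC, 4016 genes and 3 members were called. There the count was 2280 genes with a mean FPKM of at least 5, and 7688 genes and 8 members without a fold threshold. In c-MYC/FOXO1AAA versus NL, 8099 genes were called, and 5211 with a mean FPKM of at least 5, where fewer genes were tested. Log2 fold changes changed sign with equal FPKM totals for Slc40a1 (0.60) and Ireb2 (0.67) in c-MYC versus NL and for Slc11a2 (0.76), Fth1 (0.22) and Ireb2 (0.12) in c-MYC/FOXO1AAA versus NL. Under quantile normalization they changed sign for Slc40a1 (0.50) in the first and for Slc11a2 (0.07) and Fth1 (0.13) in the last of these comparisons.

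With single libraries left out, 6385 to 6671, 3593 to 4003 and 7681 to 8076 genes and 7 to 7, 3 to 4 and 8 to 9 members were called in the 3 comparisons. The replicate numbers did not pair the samples, since the 9 same-number pairs had correlations of deviations from -0.04 to 0.027 and 0 libraries correlated best with their own number. With the replicate number as a block, 6407, 3852 and 7810 genes and 7, 4 and 9 members were called, and Hamp passed between the tumour groups (adjusted p 0.0429). Depth limits the tumour values of Hamp2, which rest on 0 to 5 reads, and of Hamp in c-MYC, which rest on 32 to 194 reads. It also limits Steap1 (0 to 4 reads in NL and 0 to 9 in c-MYC/FOXO1AAA) and Erfe (0 to 12 reads in NL).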
